A study of Arabidopsis thaliana with 6 samples.

Results

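Cysteine-rich receptor-like kinases (CRKs) were followed in whole seedlings of Arabidopsis thaliana exposed to an arsenic compound. The CRK genes are 39 loci chosen by locus tag from a written list of the family, out of 26551 loci with usable values, and all 39 had a value in all 6 libraries. The deposited tables name 38 of them CRK, and the remaining locus, AT4G23250, appears there as EMB1290 and is annotated as CRK17. The DMMTA group held 3 libraries of wild-type Col-0 seedlings, 6 days old, kept for 6 h in liquid medium with 15 µM dimethylmonothioarsenate (DMMTA), a thiolated dimethyl arsenical. The control group held 3 libraries of Col-0 seedlings of the same age kept in medium with 0 µM. The labels call the libraries of a group biological replicates and do not give the number of seedlings in each. Poly(A) RNA was sequenced, and depth, estimated from the steps between low values, was about 66300000 to 109500000 reads in the DMMTA libraries and 72600000 to 134500000 in the control libraries.

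A CRK spans the plasma membrane once. Outside the cell it carries a pair of DUF26 domains, each built around conserved cysteines, and inside the cell a serine/threonine kinase. The family lies largely in tandem arrays on chromosome 4 and is known for transcripts that rise after pathogen contact, salicylic acid and extracellular reactive oxygen species, and several members act beside immune receptors and NADPH oxidases at the cell surface.

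CRK transcripts were on the whole more abundant in DMMTA. Of 38 members that passed the filter on low values (at least 1 TPM in at least 3 libraries), 20 rose and 0 fell (limma on log2(TPM + 0.5), Benjamini-Hochberg adjusted p under 0.05 over all 18813 loci tested). An unadjusted p under 0.05 was found in 26 of the 38 members, and in 7506 of the 18813 loci. Over all loci tested, 17.4% rose and 10.5% fell. TPM here is the deposited RPKM, added up within each locus and rescaled so that every library has the same total. Levels are thus per length, but the members have 1 to 8 coding sequences to add. How reads shared by these were counted is not stated, and comparisons of level between genes carry that limit. The median log2 fold change was 0.86 over the 38 members and 0.04 over all loci. In 24 tested members every DMMTA library lay above every control library, and in 1, CRK34, below, against 27.8% and 18.6% of all loci tested. Of the 20 that rose, 16 had a log2 fold change of TPM + 0.5 above 1, against 6.19% of all loci that rose by as much. A ratio of mean TPM above 2 was found in 17, and the share of all loci with such a ratio was not computed. Among the 20, CRK31 and CRK32 reached 1 TPM in no control library and so passed the filter through the DMMTA libraries alone. Without them 18 of 36 rose and the median log2 fold change was 0.76. Of those 18, 14 had a log2 fold change above 1 and 15 a ratio of means above 2. Without all 7 members that reached 1 TPM in every DMMTA library but not in every control library, 15 of 31 rose, with a median of 0.68. The 18 members that were not called had log2 fold changes above 0 in 14 cases and below 0 in 4. For 6 of the 18 the 95% interval reached 1 or more, so a log2 fold change of 1 was not excluded for these. A doubling of TPM itself lies below 1 on the scale of TPM + 0.5, and the intervals that held it were not counted.

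The summed level of the 39 genes was 652, 669 and 613 TPM in DMMTA libraries 1, 2 and 3, against 413, 413 and 255 TPM in control libraries 1, 2 and 3. Library values below are given in this order of replicates. The groups did not overlap, and control library 3 was the lowest of the 6. That library was the lowest of its group in 33 of the 38 tested members, and in 51.2% of all loci tested. It was also the shallowest control library, and the part of depth in these values was not tested. Without it the summed level was 1.56-fold higher in DMMTA, against 1.79-fold with it, the median log2 fold change of the members was 0.59, 19 members rose, and 2 fell, CRK22 (log2 fold change -0.53, adjusted p = 0.0273) and CRK34 (log2 fold change -0.54, adjusted p = 0.0341).

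**Figure D1:**
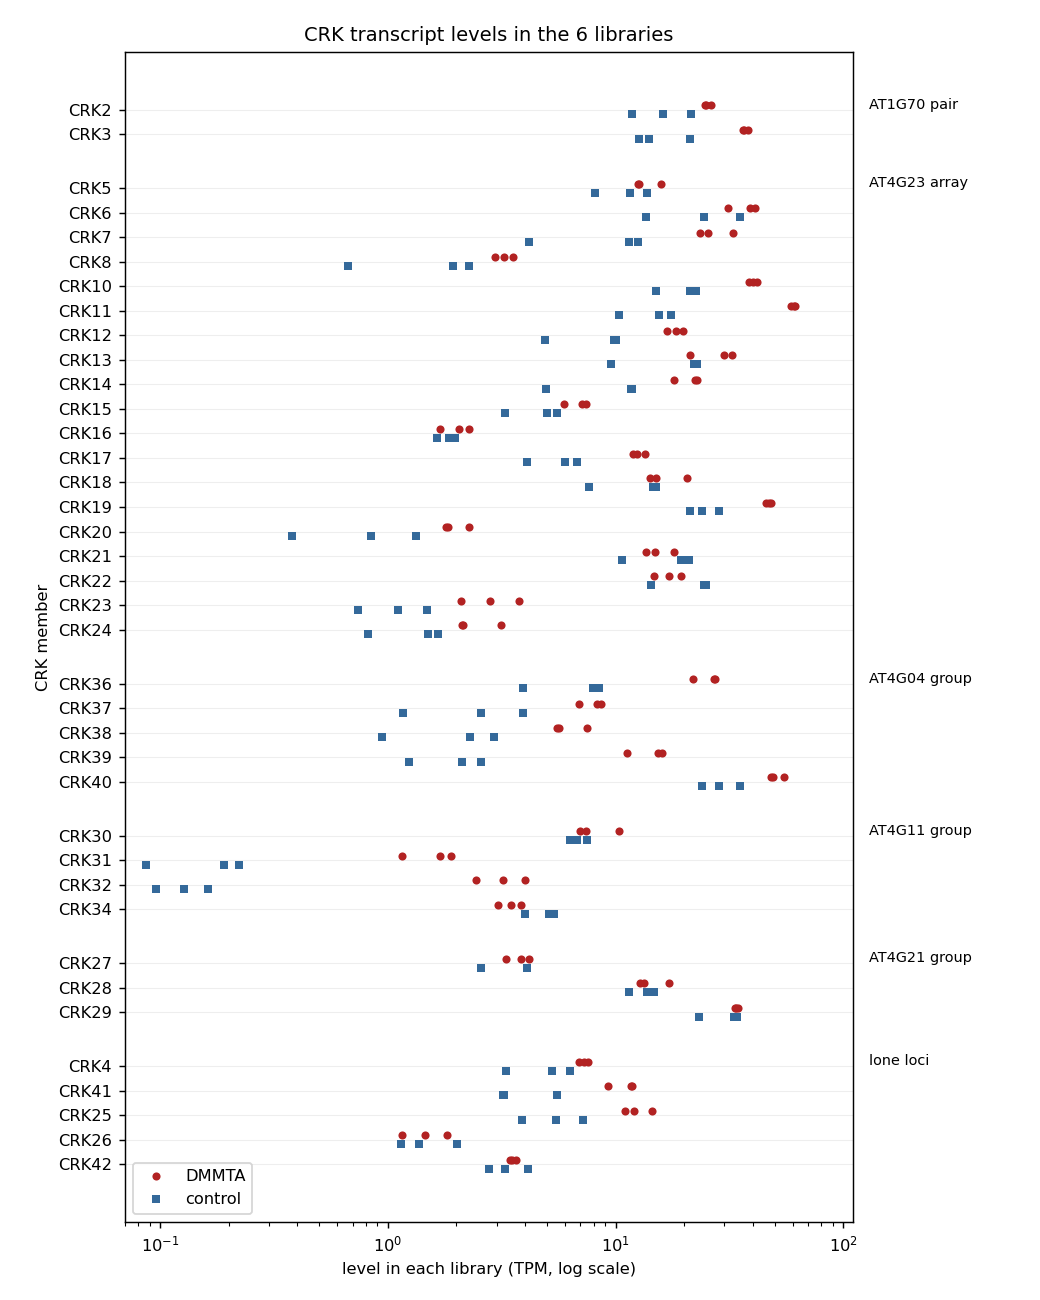
Levels in TPM (log axis) of the 38 tested CRK members in each DMMTA library (circles, upper in each row) and each control library (squares, lower in each row), ordered by locus group. DMMTA libraries lay above all control libraries in 24 members, and the widest gaps were those of CRK31 and CRK32; CRK33, near 0 in all libraries, is left out.

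The seedlings are a mixture of tissues, and in such samples fewer cells of a type and less RNA per cell cannot be told apart. Transcripts that mark root hairs were lower in DMMTA: all 5 that could be tested fell, with log2 fold changes of -2.76 for the cell wall protein gene PRP3, -2.13 for RHS13 and -1.75 for RHS19, and the 6 on the list summed to 40.8 to 54.9 TPM in DMMTA and 173 to 210 TPM in control. Of the 6 leaf photosynthesis markers 1 rose, LHCB2.1 of the light-harvesting antenna (1.41-fold), and 1 fell, the Rubisco activase RCA (log2 fold change -0.39); their sum was 16519 to 19415 TPM in DMMTA and 18633 to 20872 TPM in control. LHCB2.1 lost its call without any 1 of the DMMTA libraries or both replicate 3 libraries (adjusted p = 0.0502 to 0.0837) and RCA without DMMTA library 2 or 3, without control library 1 or 3, without both replicate 3 libraries or with no filter (adjusted p = 0.0577 to 0.170). The part of tissue makeup in the CRK values was not tested.

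Because CRK promoters are known to carry W-boxes, the sites that WRKY transcription factors bind, the core motif TTGAC was counted on both strands in the 250 bases before each annotated gene start. It occurred at least once in 29 of the 39 CRK promoters (74.4%), against 44.9% of 27444 protein-coding promoters, and at least 2 times in 16 (41.0%), against 14.1%. The longer forms TTGACC and TTGACT, each of which contains the core, occurred at least once in 25 CRK promoters (64.1%), against 28.4% of all. Windows that overlap other annotated genes were kept, here those of CRK15, CRK16, CRK24, CRK25, CRK26, CRK28, CRK29 and CRK34. The CRK16 window lies inside the CRK17 gene. Many members are tandem relatives, and whether their windows are independent was not tested. At least 1 core stood in 15 of the 20 members that rose and 13 of the 18 not called, and at least 2 in 10 of the 20 and 6 of the 18; the difference was not tested. The windows of 4 members that the results turn on are shown: CRK11, which had the largest log2 fold change of the AT4G23 array and 6 cores; CRK39 and CRK32, which had the largest log2 fold changes of TPM + 0.5 in the family and 2 cores each; and CRK19, which rose with 0 cores in this window. The sequences and coordinates are from RefSeq, build TAIR10.1, while the sources used here do not name the build behind the deposited values, 5′ to 3′ on the strand of the gene, with each TTGAC or its reverse complement in capitals.
CRK11, chr4:12143859-12144108, minus strand: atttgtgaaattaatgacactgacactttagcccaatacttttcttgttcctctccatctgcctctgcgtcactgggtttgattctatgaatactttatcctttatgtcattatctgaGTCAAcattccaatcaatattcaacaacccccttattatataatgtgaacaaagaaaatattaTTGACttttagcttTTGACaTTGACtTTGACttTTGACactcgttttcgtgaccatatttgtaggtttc
CRK39, chr4:2259248-2259497, plus strand: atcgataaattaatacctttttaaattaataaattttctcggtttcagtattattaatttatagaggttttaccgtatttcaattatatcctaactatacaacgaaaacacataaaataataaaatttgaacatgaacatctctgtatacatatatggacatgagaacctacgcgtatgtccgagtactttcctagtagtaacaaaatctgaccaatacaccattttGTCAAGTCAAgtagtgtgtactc
CRK32, chr4:6971151-6971400, plus strand: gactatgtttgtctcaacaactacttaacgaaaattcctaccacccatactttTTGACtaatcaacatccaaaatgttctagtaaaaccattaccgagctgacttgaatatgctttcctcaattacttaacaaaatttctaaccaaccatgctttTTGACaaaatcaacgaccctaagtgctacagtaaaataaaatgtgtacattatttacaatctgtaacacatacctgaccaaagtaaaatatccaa
CRK19, chr4:12170705-12170954, plus strand: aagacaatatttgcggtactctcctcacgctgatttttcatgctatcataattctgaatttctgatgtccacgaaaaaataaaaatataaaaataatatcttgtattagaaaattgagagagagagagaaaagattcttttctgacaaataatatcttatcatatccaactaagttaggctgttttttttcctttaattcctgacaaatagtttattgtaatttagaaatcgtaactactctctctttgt
In CRK11, 5 of the 6 cores stand close together within the last 69 bases before the gene start, and in CRK39 both cores adjoin each other within the last 23. A match to these letters describes the sequence and is not a measurement of binding.

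The AT4G23 array holds 19 of the members in 74.2 kb of chromosome 4 (chr4:12117491-12191704, TAIR10.1), 8 on the plus strand and 11 on the minus strand, among 21 protein-coding genes. Of these, 9 rose, 0 fell and 10 were not called, with a median log2 fold change of 0.92. The array summed to 382, 392 and 347 TPM in DMMTA and 239, 246 and 136 TPM in control, so the lowest DMMTA library stood above the highest control library. Genes that rose lay among genes that were not called along the whole array.

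**Figure D2:**
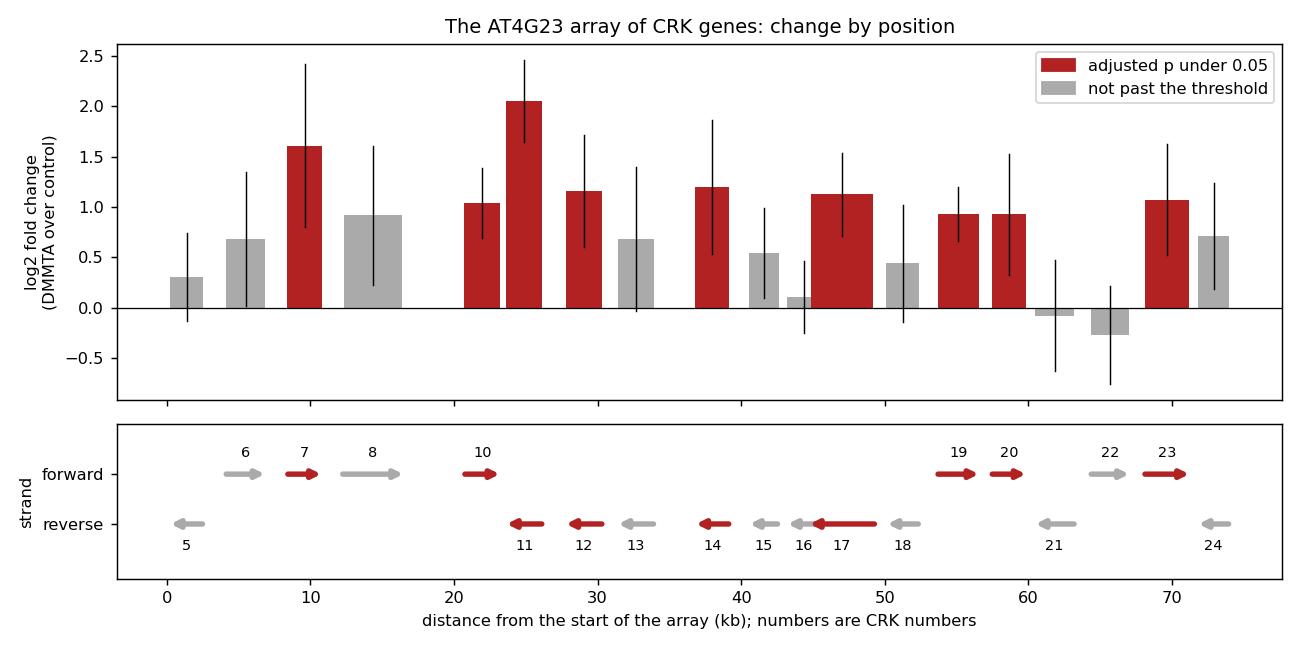
Log2 fold change (DMMTA over control, bars, with 95% intervals) of the 19 genes of the AT4G23 array against distance from its start in kb, with the transcribed strand below; numbers are CRK numbers. CRK11 had the largest value, 2.05, and CRK21 and CRK22, near the far end, were the only array genes below 0.

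CRK11 (AT4G23190), also known as RLK3 and long described as responsive to salicylic acid and oxidative stress, changed most within the array. It had 58.7, 61.4 and 60.8 TPM in DMMTA, against 17.6, 15.6 and 10.3 TPM in control. Its mean was 60.3 ± 1.41 TPM in DMMTA and 14.5 ± 3.74 TPM in control (SD, n = 3 each), and its log2 fold change was 2.05 ± 0.18 (SE, adjusted p = 8.52e-05). With that it was the most abundant of the 39 members in DMMTA and ranked 11 among them in control. It alone made up 16.1% of the rise in their summed level.

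CRK10 (AT4G23180), whose gain-of-function allele is known to dwarf the plant, lies tail to tail with CRK11, and the transcribed regions of both genes overlap by 32 bases outside the coding sequence. It had 39.9, 38.4 and 42.0 TPM in DMMTA and 22.5, 21.2 and 15.0 TPM in control (2.05-fold, adjusted p = 0.00138). CRK12 (AT4G23200), on the other side of CRK11, had 19.7, 16.7 and 18.3 TPM in DMMTA and 10.1, 9.79 and 4.91 TPM in control (2.21-fold, adjusted p = 0.00828). These neighbours of CRK11 therefore both rose, with groups that did not overlap. CRK19 (AT4G23270) was among the most abundant members in both groups, at 45.6, 47.9 and 47.1 TPM in DMMTA and 28.4, 23.9 and 21.2 TPM in control (1.91-fold, adjusted p = 6.44e-04); a gene on the opposite strand overlaps it by 102 bases, and whether counting used strand is not stated. Its next-door neighbour CRK20 (AT4G23280), whose mutant is known for altered susceptibility to Pseudomonas, is 90.2% identical to it in coding sequence but was expressed at a far lower level, 2.27, 1.79 and 1.84 TPM in DMMTA and 1.33, 0.844 and 0.380 TPM in control (adjusted p = 0.0300). The call of CRK20 was lost without any 1 library other than control library 1 (adjusted p = 0.0562 to 0.0924) and without both replicate 3 libraries (adjusted p = 0.118). Of the 50-base windows of the CRK20 coding sequence, 7.22% are found at other loci, most often in CRK19. The level and call of CRK20 are therefore less certain, and the part of CRK19 reads in them was not tested.

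CRK6 and CRK7 are known for their part in responses to extracellular reactive oxygen species. CRK7 (AT4G23150) had 32.7, 25.5 and 23.4 TPM in DMMTA and 12.6, 11.4 and 4.16 TPM in control (2.90-fold, adjusted p = 0.0104). CRK6 (AT4G23140) had 38.8, 40.9 and 31.2 TPM in DMMTA and 24.5, 35.0 and 13.6 TPM in control; the groups overlapped and it was not called (adjusted p = 0.119, and 0.0191 without control library 2). Every library of CRK7 in DMMTA thus exceeded its control libraries. Both genes varied among the control libraries alone, CRK7 3.02-fold and CRK6 2.58-fold. CRK8 (AT4G23160), next to CRK7, had 3.55, 3.24 and 2.96 TPM in DMMTA and 1.93, 2.26 and 0.666 TPM in control, with groups that did not overlap and an adjusted p of 0.0522, and it was under 0.05 without control library 2 (0.0259) or control library 3 (0.0442), with a pseudocount of 2 (0.0362) and with limma-voom (0.0436). CRK6 and CRK8 share sequence, 29.8% of the 50-base windows of the CRK6 coding sequence being found elsewhere in the coding genome, most often in CRK8, so their levels are less certain.

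CRK14 and CRK17 (AT4G23250) rose as well. CRK14 (AT4G23220) had 22.4, 22.8 and 18.0 TPM in DMMTA and 11.6, 11.8 and 4.97 TPM in control (2.22-fold, adjusted p = 0.0164), a call lost without DMMTA library 1 (adjusted p = 0.0567) or DMMTA library 2 (0.0565). CRK17 (EMB1290 in the files) had 13.5, 12.5 and 11.9 TPM in DMMTA and 6.01, 6.79 and 4.07 TPM in control (2.24-fold, adjusted p = 0.00211). The groups did not overlap in either gene. The annotated coding sequences of CRK17 and CRK16 overlap by 776 bases on the same strand, so reads there cannot be assigned to one of them, and CRK16 (AT4G23240) stood at 1.69, 2.05 and 2.28 TPM in DMMTA and 1.97, 1.64 and 1.85 TPM in control (adjusted p = 0.642). CRK23 (AT4G23310) rose at a low level, to 3.78, 2.09 and 2.80 TPM in DMMTA, against 1.48, 1.11 and 0.737 TPM in control (adjusted p = 0.0113, and 0.102 without both replicate 3 libraries).

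Several well-studied genes of the array were not called. CRK5 (AT4G23130), whose overexpression is known to cause cell death and resistance to bacteria, had 12.7, 15.8 and 12.6 TPM in DMMTA and 11.6, 13.8 and 8.12 TPM in control, with overlapping groups (log2 fold change 0.31, 95% interval -0.13 to 0.75). CRK13 (AT4G23210), whose overexpression raises salicylic acid, had 29.9, 32.4 and 21.2 TPM in DMMTA and 22.1, 22.7 and 9.56 TPM in control (log2 fold change 0.68, 95% interval -0.03 to 1.40, adjusted p = 0.142, and 0.0388 without both replicate 3 libraries). Both genes had values in DMMTA that reached into the control range. CRK13 shares 18.5% of its 50-base windows, chiefly with CRK22 (AT4G23300), the array gene with the lowest log2 fold change (-0.27, 95% interval -0.76 to 0.22). CRK22 had 17.2, 19.5 and 14.7 TPM in DMMTA and 25.0, 24.4 and 14.3 TPM in control, and was called lower only without control library 3, as given above. The other 4 array genes that were not called, CRK15, CRK18, CRK21 and CRK24, had log2 fold changes of -0.08 to 0.71; CRK15 passed the threshold without control library 2 (adjusted p = 0.0421). CRK24 lay at an adjusted p of 0.0503 and passed without control library 2 (0.0420), with a pseudocount of 2 (0.0452), with no trend (0.0452), with limma-voom (0.0487) and with median-of-ratios scaling (0.0490).

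**Figure D3:**
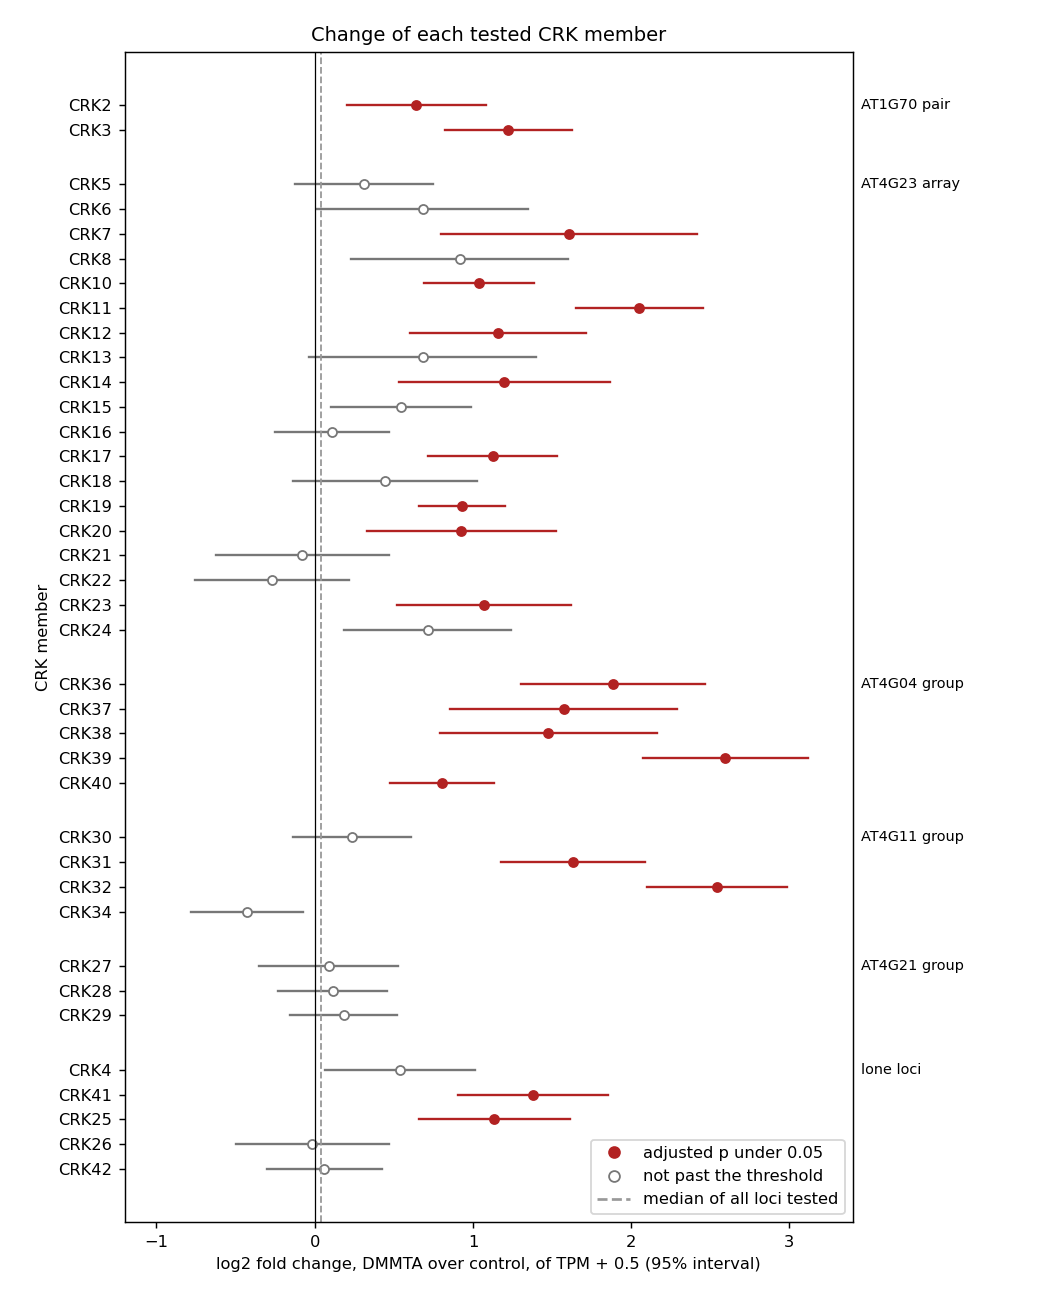
Log2 fold change of TPM + 0.5 (DMMTA over control) of each tested CRK member with its 95% interval, by locus group; filled points passed an adjusted p of 0.05 and the dashed line is the median of all loci tested, 0.04. All 5 members of the AT4G04 group passed and 0 of the 3 in the AT4G21 group did.

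The AT4G04 group, 5 genes in 61.2 kb elsewhere on chromosome 4 (chr4:2231717-2292965), rose in full, and its median log2 fold change was 1.57. It summed to 105, 109 and 98.9 TPM in DMMTA and 45.3, 51.4 and 31.1 TPM in control. CRK39 (AT4G04540) had the largest log2 fold change of TPM + 0.5 in the family, while CRK32 came first with a pseudocount of 0.1, with limma-voom, without control library 3 and by ratio of means. CRK39 had 16.0, 11.2 and 15.4 TPM in DMMTA, against 2.11, 2.56 and 1.24 TPM in control, a 7.21-fold difference (log2 fold change 2.60 ± 0.23 SE, adjusted p = 9.52e-05). CRK40 (AT4G04570), 87.1% identical to CRK39 in coding sequence and the second most abundant of the 39 members in both groups, had 48.3, 55.0 and 49.1 TPM in DMMTA and 28.5, 35.3 and 23.8 TPM in control (1.74-fold, adjusted p = 0.00391). The 95% intervals of the log2 fold change were 2.07 to 3.12 for CRK39 and 0.47 to 1.13 for CRK40; the difference between these relatives was not itself tested. Only 7.25% of the 50-base windows of CRK39 are shared, most of them with CRK40.

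CRK36 (AT4G04490), which is known to phosphorylate the immune kinase BIK1 and to act with ARCK1 in abscisic acid responses, had 26.9, 27.3 and 21.9 TPM in DMMTA and 8.49, 8.00 and 3.94 TPM in control (3.73-fold, adjusted p = 8.73e-04). The lowest DMMTA library was thus well above the highest control library. CRK37 (AT4G04500) had 8.66, 8.28 and 6.91 TPM in DMMTA and 3.93, 2.57 and 1.17 TPM in control (3.11-fold, adjusted p = 0.00654). CRK38 (AT4G04510) had 5.65, 7.49 and 5.56 TPM in DMMTA and 2.29, 2.93 and 0.943 TPM in control (3.03-fold, adjusted p = 0.00722). Neither gene's groups overlapped.

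The AT4G11 group, 5 genes in 26.3 kb (chr4:6963521-6989793), divided. CRK32 (AT4G11480) had 2.44, 3.20 and 4.01 TPM in DMMTA and 0.162, 0.0957 and 0.127 TPM in control, the largest ratio of means in the family at 25.1-fold (log2 fold change 2.54 ± 0.19 SE). Its neighbour CRK31 (AT4G11470), 87.5% identical to it, had 1.16, 1.70 and 1.89 TPM in DMMTA and 0.222, 0.0870 and 0.190 TPM in control (9.51-fold, log2 fold change 1.63). Both genes were close to silent in control seedlings, passed the filter only through the DMMTA libraries, so that their calls are given as a description, and share 9 windows of 50 bases. Their log2 fold changes are therefore held down by the added 0.5. In the same group CRK34 (AT4G11530) was the member with the lowest log2 fold change of the family, with 3.04, 3.85 and 3.46 TPM in DMMTA and 5.36, 5.11 and 4.02 TPM in control. Its groups did not overlap, but it was not called (log2 fold change -0.43, 95% interval -0.78 to -0.07, adjusted p = 0.0736), and it was called lower with median-of-ratios scaling (adjusted p = 0.0412), with limma-voom (0.0149) and without control library 3. CRK30 (AT4G11460) had 7.00, 7.44 and 10.3 TPM in DMMTA and 6.29, 7.51 and 6.79 TPM in control (adjusted p = 0.319). CRK33 (AT4G11490), the family member that was not tested, was listed at 0 in 5 libraries and at 0.0174 TPM in control library 2.

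**Figure D4:**
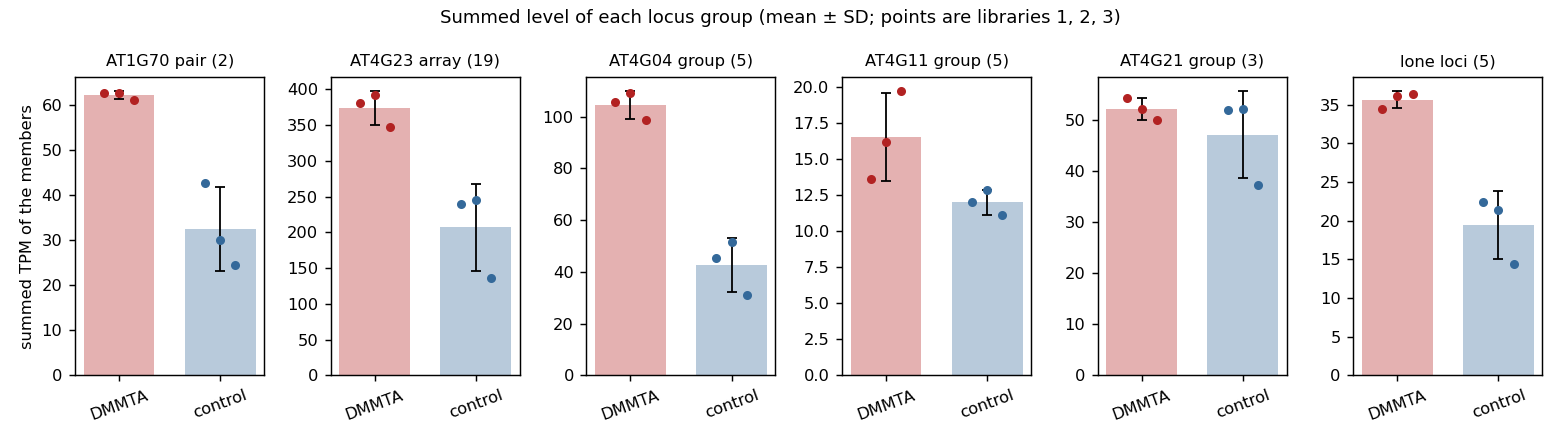
Summed TPM of the members of each locus group in each library (points), with mean and SD as bars (n = 3), DMMTA left of control; each panel has its own axis from 0. The AT1G70, AT4G23, AT4G04, AT4G11 and lone loci sums lay higher in all DMMTA than in all control libraries, while those of the AT4G21 group overlapped.

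In the AT4G21 group none of 3 genes was called (limma, 0 also at an unadjusted p under 0.05). CRK28 (AT4G21400), known to associate with the co-receptor BAK1 and to strengthen immunity when overexpressed, had 17.2, 13.3 and 12.8 TPM in DMMTA and 14.7, 13.8 and 11.4 TPM in control (log2 fold change 0.11, 95% interval -0.23 to 0.46). CRK29 (AT4G21410) lay among the more abundant members in both groups, at 33.8, 34.6 and 33.3 TPM in DMMTA and 33.1, 34.3 and 23.3 TPM in control (log2 fold change 0.18, 95% interval -0.15 to 0.52). For both genes the intervals excluded a doubling. CRK27 (AT4G21230) had 3.31, 4.18 and 3.84 TPM in DMMTA and 4.09, 4.09 and 2.55 TPM in control (log2 fold change 0.09). The transcribed regions of CRK28 and CRK29 overlap by 470 bases outside their coding sequences.

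The AT1G70 pair on chromosome 1 rose. CRK3 (AT1G70530) had 38.2, 36.5 and 36.4 TPM in DMMTA and 21.2, 14.0 and 12.7 TPM in control (2.32-fold, adjusted p = 0.00122). CRK2 (AT1G70520), which is known to phosphorylate the NADPH oxidase RBOHD and to act in salt tolerance, had 24.6, 26.2 and 24.9 TPM in DMMTA and 21.5, 16.1 and 11.8 TPM in control (1.53-fold, adjusted p = 0.0373). The groups were separate in both genes. The call of CRK2 was lost without any 1 of the DMMTA libraries, control library 2 or control library 3 (adjusted p = 0.0584 to 0.105), without both replicate 3 libraries (0.139) and with no filter on low values (0.0611). Neither gene shares a 50-base window with another locus.

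Of the 5 lone loci 2 rose. CRK41 (AT4G00970) had 11.7, 9.22 and 11.8 TPM in DMMTA and 5.51, 3.19 and 3.25 TPM in control (2.74-fold, adjusted p = 0.00160). CRK25 (AT4G05200) had 11.0, 14.4 and 12.1 TPM in DMMTA and 5.50, 7.22 and 3.89 TPM in control (2.26-fold, adjusted p = 0.00431). CRK4 (AT3G45860), whose overexpression is known to strengthen pattern-triggered immunity, had 6.90, 7.56 and 7.24 TPM in DMMTA and 5.28, 6.33 and 3.30 TPM in control; its groups did not overlap, but it was not called (log2 fold change 0.54, adjusted p = 0.0876, and 0.0318 without control library 2). CRK26 and CRK42 had log2 fold changes of -0.01 and 0.06, with 95% intervals of -0.50 to 0.47 and -0.30 to 0.43.

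Levels differed widely within the family. In DMMTA 22 of the 39 members averaged over 10 TPM, and in control 14 did. These levels and the order below are sums over coding sequences, of which CRK11 has 4, CRK40 3 and CRK22 1. The order was not examined with 1 coding sequence per locus. The 5 most abundant members in DMMTA were CRK11 (60.3 ± 1.41 TPM), CRK40 (50.8 ± 3.64), CRK19 (46.9 ± 1.19), CRK10 (40.1 ± 1.76) and CRK3 (37.1 ± 1.03; SD, n = 3 each), and in control they were CRK29 (30.2 ± 6.03 TPM), CRK40 (29.2 ± 5.77), CRK19 (24.5 ± 3.61), CRK6 (24.4 ± 10.7) and CRK22 (21.2 ± 6.02). In control neighbouring means in this order differed by less than the larger of their SDs. In DMMTA CRK6 ranked 6 at 37.0 ± 5.14 TPM, close to CRK3, so the last place among the 5 was not settled. The median relative SD over the tested members was 13.3% in DMMTA and 30.0% in control, against 8.99% and 12.7% over all loci tested. Over control libraries 1 and 2 alone it was 12.1% for the members. That value comes from 2 libraries and leaves out the one that was lowest in most members. It therefore cannot show what the wider spread in control rests on.

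Related genes were examined beside the family. Of 6 further loci written as CRK relatives, 4 were tested, 3 rose and AT4G00960 was not called (adjusted p = 0.0754), while 17.4% of all loci tested rose. CRK1 was listed at 0 in all 6 libraries, and CRK35 (AT4G11500) had no usable value. ARCK1 (CRK45), a receptor-like cytosolic kinase without the extracellular part, had 120, 109 and 91.5 TPM in DMMTA and 71.4, 47.5 and 29.4 TPM in control (2.16-fold, adjusted p = 0.0132, and 0.0507 without DMMTA library 1). The kinase gene AT1G70740 had 20.5, 21.2 and 19.4 TPM in DMMTA and 10.3, 8.91 and 8.08 TPM in control (2.24-fold, adjusted p = 2.66e-04). CRK9 (EP1), inside the AT4G23 array, had 72.2, 58.4 and 62.8 TPM in DMMTA and 48.9, 44.2 and 30.7 TPM in control (1.56-fold, adjusted p = 0.0221), a call lost without DMMTA library 1 (0.0799), DMMTA library 3 (0.0642) or both replicate 3 libraries (0.0747). All 3 genes had groups that did not overlap.

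Plasmodesmata-located proteins (PDLPs) share the DUF26 ectodomain but have no kinase, and act at the channels between cells. Of 8 tested, 2 rose and 1 fell, with a median log2 fold change of 0.08. Over all loci tested 17.4% rose and 10.5% fell, and with so few PDLPs the counts do not set them apart. PDLP1 had 5.13, 7.49 and 5.38 TPM in DMMTA and 2.18, 3.05 and 1.59 TPM in control (2.64-fold, adjusted p = 0.00390). PDLP5, known to close plasmodesmata in response to salicylic acid, had 15.2, 19.3 and 21.0 TPM in DMMTA and 11.0, 10.7 and 8.82 TPM in control (1.82-fold, adjusted p = 0.00398). PDLP6 had 19.9, 16.4 and 16.2 TPM in DMMTA and 24.3, 26.2 and 20.5 TPM in control (log2 fold change -0.42, adjusted p = 0.0430), and lost its call without DMMTA library 2 (0.137) or 3 (0.152), without control library 1 (0.102) or 2 (0.113) and in 5 other settings (0.0548 to 0.0766).

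Most of the listed genes for signalling at the cell surface rose alongside. Of 16 listed receptors, co-receptors, oxidases and kinases, 12 rose and 0 fell, with a median log2 fold change of 0.75. Over all loci tested, 17.4% rose and 10.5% fell. This list was chosen with earlier results of these data known, so its counts are a description. RBOHD, the NADPH oxidase that makes superoxide outside the cell, had 43.5, 46.5 and 49.2 TPM in DMMTA and 25.1, 30.8 and 17.2 TPM in control (1.91-fold, adjusted p = 0.00631). BIK1, the cytoplasmic kinase downstream of immune receptors, had 38.9, 38.2 and 37.8 TPM in DMMTA and 23.4, 22.0 and 20.4 TPM in control (1.75-fold, adjusted p = 4.51e-04). The DMMTA and control libraries were separate for both. The 3 largest called changes of this list were those of MKK4 (2.25-fold) and MPK3 (2.19-fold), steps of a MAP kinase cascade, and of the co-receptor gene BKK1 (annotated SERK4, 2.17-fold), with adjusted p = 0.00190, 2.14e-04 and 0.00174.

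Of 17 WRKY regulators and salicylic acid genes, 12 rose and 0 fell, with a median log2 fold change of 0.96. The shares over all loci tested were 17.4% that rose and 10.5% that fell. These genes too were chosen with earlier results of these data known, and the counts are a description. PBS3, an enzyme of salicylic acid synthesis, had 73.2, 46.3 and 54.9 TPM in DMMTA and 19.5, 10.2 and 5.68 TPM in control (4.94-fold, adjusted p = 0.00186). WRKY33, a regulator of camalexin synthesis, had 165, 147 and 173 TPM in DMMTA and 40.9, 26.5 and 31.5 TPM in control (4.90-fold, adjusted p = 2.63e-05). ICS1 (annotated EDS16), the isochorismate synthase of the same route as PBS3, had 139, 100 and 119 TPM in DMMTA and 52.9, 38.9 and 26.6 TPM in control (3.02-fold, adjusted p = 0.00113). In all 3 the groups did not overlap. The pathogenesis-related genes PR1, PR2 and PR5, singled out after their values were seen, were not among the 12. PR1, the usual marker of salicylic acid signalling, had 344, 251 and 252 TPM in DMMTA and 1044, 411 and 380 TPM in control. It was lower in every DMMTA library but not called (log2 fold change -0.97, adjusted p = 0.0706). It was called lower with limma-voom (adjusted p = 0.0349) and with the replicate number as a block (0.00455).

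**Figure D5:**
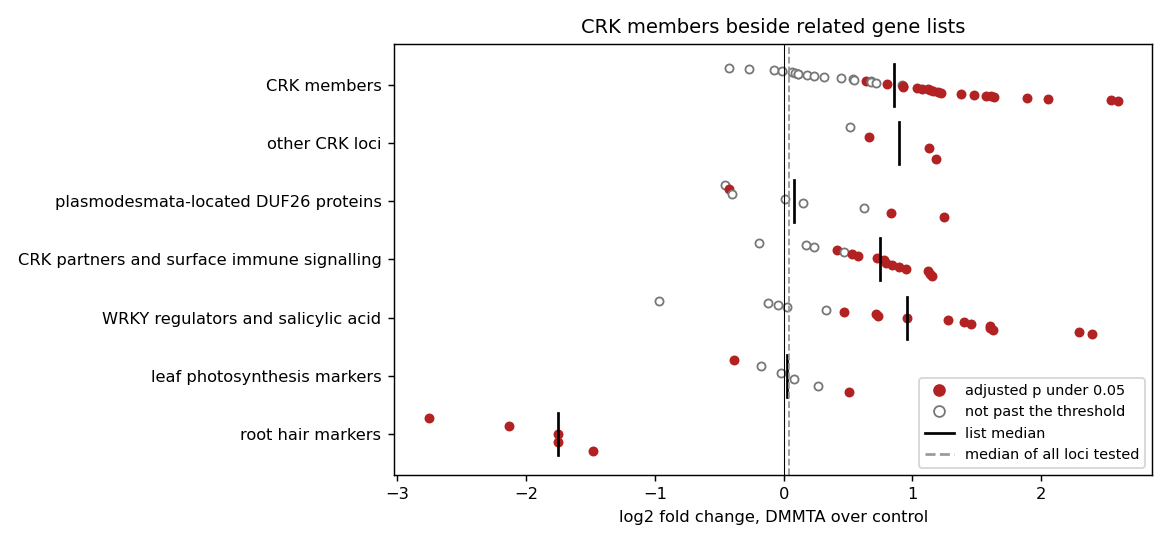
Log2 fold change (DMMTA over control) of the tested genes of each list, 1 point per gene, filled where the adjusted p was under 0.05, with the list median as a bar and the median of all loci tested dashed. The medians were 0.86 for CRK members, 0.89 for further CRK loci, 0.08 for PDLPs, 0.75 for surface signalling, 0.96 for WRKY and salicylic acid genes, 0.03 for leaf photosynthesis markers and -1.75 for root hair markers.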

How the data were processed

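Whole-seedling RNA of 3 DMMTA and 3 control libraries was sequenced from strand-specific poly(A) libraries, per the labels' protocols. The authors deposited RPKM, FPKM and TPM per coding sequence, per the file headers; the RPKM values were used, the FPKM values deposited by the authors served as an alternative, and the TPM column was not used. DESeq2 is named in the submitters' processing notes, with no role. The aligner, counting tool and genome build were not given in any source used here. Of 48350 rows per table, 1678 with displaced cells and 206 emptied ones (3.90%) were left out. The RPKM of all coding sequences of 1 locus were added, and each library was scaled to a total of 1000000. The number of coding sequences per locus equalled that of RefSeq TAIR10.1 in nearly all nuclear loci, all 39 CRK loci included, and TAIR10.1 supplied coordinates and promoters. Depth was estimated by matching low RPKM values of short loci to whole reads, and 86.4% to 95.3% of them came to a whole number within 0.2 read. Reads of near-identical paralogs may be divided or misplaced, so the share of 50-base coding windows found at other loci is given for some members. The largest shares were 33.5% in CRK16, 29.8% in CRK6 and 25.1% in CRK17.

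A locus was tested where 3 or more libraries reached 1 TPM. The test was limma 3.58.1 (R 4.3.3) on log2(TPM + 0.5), with the group as the single term and a trend of the spread with level, and the threshold was 0.05 on the Benjamini-Hochberg adjusted p of all tested loci; adjusted p-values in the text are from this fit. The script was tested on simulated data. The scale understates the change of low genes. Folds are ratios of mean TPM. Every CRK member is accounted for; library values are given for each called member and for CRK2, CRK4, CRK5, CRK6, CRK7, CRK10, CRK11, CRK13, CRK20, CRK28 and CRK36, and other members named as neighbours or relatives were added after their values were seen. From each other list up to 3 of the largest called changes are named, with RBOHD and BIK1. The members and lists were chosen with earlier results of these data known. Identity is over aligned bases of the longest coding sequences (Biopython 1.88). Alternatives were other filters, pseudocounts of 0.1 and 2, FPKM, the highest coding sequence per locus, median-of-ratios scaling, no trend, the replicate number as a block, libraries left out, and limma-voom on reads rebuilt from RPKM. Figures were drawn with matplotlib 3.10.9.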

Additional observations from a re-analysis of the deposited data

How the results depend on the processing

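As reported, 20 CRK members were higher and 0 lower. Leaving out 1 library at a time gave 15 to 23 higher and 0 to 2 lower, the 2 being CRK22 and CRK34 without control replicate 3. Median-of-ratios scaling gave 1 lower and limma-voom on rebuilt reads, an alternative chosen after seeing the data, 1 lower, CRK34 in both. A requirement of a log2 fold change of TPM + 0.5 above 1 gave 16 higher. Of the 20 members that rose, 14 were called in all 17 alternatives without that requirement; CRK2, CRK14, CRK20 and CRK23 lost the call in at least 1, and CRK31 and CRK32 were too low to be tested in some. Of the 18 not called, 8 gained a call in at least 1 alternative: CRK4, CRK6, CRK8, CRK13, CRK15 and CRK24 as higher, CRK22 and CRK34 as lower. No member changed sign with a call. Of the calls among all loci, the share that rose was 62.3% as reported, 57.0% when scaled by median of ratios and 50.7% under limma-voom; the cause was not tested. Same-numbered libraries shared deviations with correlations of 0.24, 0.33 and 0.08 across loci; each library correlated best with its own number, a hint from the data, but the third pair is too weak to treat the numbers as pairs. The replicate block gave 26 CRK members higher, among them the same 20, and 0 lower; the 6 added were CRK4, CRK6, CRK8, CRK13 (adjusted p = 0.00903), CRK15 and CRK24 (0.0184), and PR1 was called lower (0.00455). The files give no counts, so no counting interval stands beside the levels near 0.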
